A study of Mus musculus with 48 samples.

Results

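The genes described here are 10 stress genes of the unfolded protein response and of the transcription factor Atf4: Atf4, Ddit3, Trib3, Atf5, Chac1, Sesn2, Asns, Psat1, Hspa5 and Xbp1. They were chosen by name with earlier results of these data known, so shares of all genes set beside them below are a description. Each matched 1 row, and together they are 10 of the 24973 genes in the deposited table. RNA was measured in 48 libraries of 4 cell types, microglia (MG), astrocytes (AC), pericytes (PC) and endothelial cells (EC), sorted by flow cytometry from adult male wild-type C57BL/6 mice aged 12 to 15 weeks. All mice underwent transient occlusion of the right middle cerebral artery for 1 h, followed by 23 h of reperfusion, and mice that died or had a low neurological severity score were left out by the authors. The ipsilateral (stroke) hemisphere was compared with the contralateral hemisphere of the same mice, which also served as the control, and no sham-operated animals were sequenced. Each of the 8 groups held 6 libraries, and each library came from the pooled cells of 3 to 4 mice.

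Cells that cannot fold the proteins entering the endoplasmic reticulum (ER) switch on the unfolded protein response through the sensors Perk, Ire1 and Atf6. Perk, and related kinases that sense lack of amino acids or heme, phosphorylate eIF2α, which slows translation in general and favours translation of the Atf4 message. Atf4 then drives genes for amino acid supply, such as Asns and Psat1, and the stress genes Ddit3 (also called CHOP), Trib3, Chac1, Sesn2 and Atf5, while Ire1 splices the Xbp1 message and Atf6 and Xbp1 raise ER chaperones such as Hspa5 (BiP). The response is known in ischemic brain tissue, where energy failure and calcium loss from the ER disturb folding. Counts per gene see neither the splicing of Xbp1 nor the translation of Atf4.

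Upstream sequences, taken from RefSeq on GRCm38.p6, are shown because Atf4 and the ER stress factors act through short DNA motifs. All 10 genes had a RefSeq promoter entry, and the 250 bases before each start site were searched on both strands for TGATGNAA (the core of the C/EBP-ATF response element, where N is any base), for TGACGTGG, for TGACGTCA and for the ER stress response element (CCAAT, 9 bases of any kind, then CCACG). TGGTGCAA, a variant of the C/EBP-ATF core that occurs in both Trib3 and Psat1, was added after these sequences had been read. In the following short stretches, the capitals mark the match and the position is counted back from the start site.
Trib3, chr2:152344081-152344098, minus strand: acagaTGGTGCAAtcccg
Psat1, chr19:15925183-15925200, minus strand: gtggcTGGTGCAAtcccc
Asns, chr6:7693220-7693237, minus strand: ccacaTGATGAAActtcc
Chac1, chr2:119351044-119351061, plus strand, match on the opposite strand: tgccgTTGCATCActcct
Hspa5, chr2:34772020-34772048, plus strand: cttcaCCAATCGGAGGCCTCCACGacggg
The match stood at -33 to -26 in Trib3, -136 to -129 in Psat1, -23 to -16 in Asns, -193 to -186 in Chac1 and -65 to -47 in Hspa5. Among all 32851 RefSeq mouse promoters of this length, 3.452% held TGATGNAA, 0.463% held TGGTGCAA and 0.113% held the ER stress response element. TGACGTGG and TGACGTCA, held by 0.563% and 1.546% of promoters, were in none of the windows of the 10 genes. Atf5 and Psat1 had 2 start sites each. The match of Psat1 lies in the window of its first, and the window of its second (chr19:15924623-15924872) held none of the motifs. A match of letters is not a measured binding site.

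The longer upstream windows of Trib3, Psat1 and Xbp1, genes that passed the test in at least 1 cell type, lie outside every annotated exon. They are given because Trib3 and Psat1 share the variant core marked in capitals, while the window of Xbp1 held none of the motifs searched. TGGTGCAA was added after the sequences had been read, so neither this contrast nor its share of 0.463% is a test.
Trib3, chr2:152344061-152344310, minus strand: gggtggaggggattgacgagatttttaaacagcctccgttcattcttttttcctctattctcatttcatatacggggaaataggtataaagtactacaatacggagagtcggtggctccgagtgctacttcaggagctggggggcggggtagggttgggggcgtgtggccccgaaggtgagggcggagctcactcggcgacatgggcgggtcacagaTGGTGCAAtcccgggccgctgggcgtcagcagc
Psat1, chr19:15925060-15925309, minus strand: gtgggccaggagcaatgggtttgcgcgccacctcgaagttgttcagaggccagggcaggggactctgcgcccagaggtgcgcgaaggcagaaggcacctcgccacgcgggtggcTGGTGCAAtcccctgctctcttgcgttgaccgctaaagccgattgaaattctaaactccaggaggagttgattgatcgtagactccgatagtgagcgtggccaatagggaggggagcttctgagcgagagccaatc
Xbp1, chr11:5520391-5520640, plus strand: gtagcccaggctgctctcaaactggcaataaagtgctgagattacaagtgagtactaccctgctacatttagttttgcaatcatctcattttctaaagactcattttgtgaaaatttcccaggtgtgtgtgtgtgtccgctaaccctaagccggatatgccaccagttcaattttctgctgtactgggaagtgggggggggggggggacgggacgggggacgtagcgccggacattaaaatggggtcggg

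Before the results, 3 features of the libraries bear on their reading. For the 12 ipsilateral libraries of PC and MG, the title of a sample names one cell type and its description the other. The description, which is also the column name, was used, and the markers of PC and MG were highest in the libraries so named. The AC libraries held RNA of the oligodendrocyte markers Mbp, Mog, Mag, Mobp and Cnp, between 27383 and 225171 normalized counts per library, beside the astrocyte markers Gfap, Aldh1l1, Slc1a3 and Aqp4, between 41095 and 121715. The oligodendrocyte markers summed to more than the astrocyte markers in 7 of the 12 AC libraries, so these libraries are called astrocytes by their sort. In EC, PC and AC, the libraries numbered 1 to 4 held more microglial marker RNA than those numbered 5 and 6, with an overlap in contralateral PC. No label names a batch. Not all markers split this way. The oligodendrocyte markers in EC were highest in library 5 (6228 contralateral, 10199 ipsilateral). The neutrophil markers in ipsilateral PC summed to 44 to 13946 in libraries 1 to 4 and to 50 to 155 in libraries 5 and 6. In ipsilateral PC the microglial markers Aif1, Tmem119, Cd68 and Csf1r summed to 6025 to 28388 in libraries 1 to 4 and to 267 to 277 in libraries 5 and 6. In contralateral PC the same sums were 532 to 11003 and 249 to 575, and the neutrophil markers reached 13946 in ipsilateral against 1659 in contralateral PC. The part of these cells in the results was not tested. In such sorted bulk samples, fewer cells of a type and less RNA per cell cannot be told apart.

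**Figure D1:**
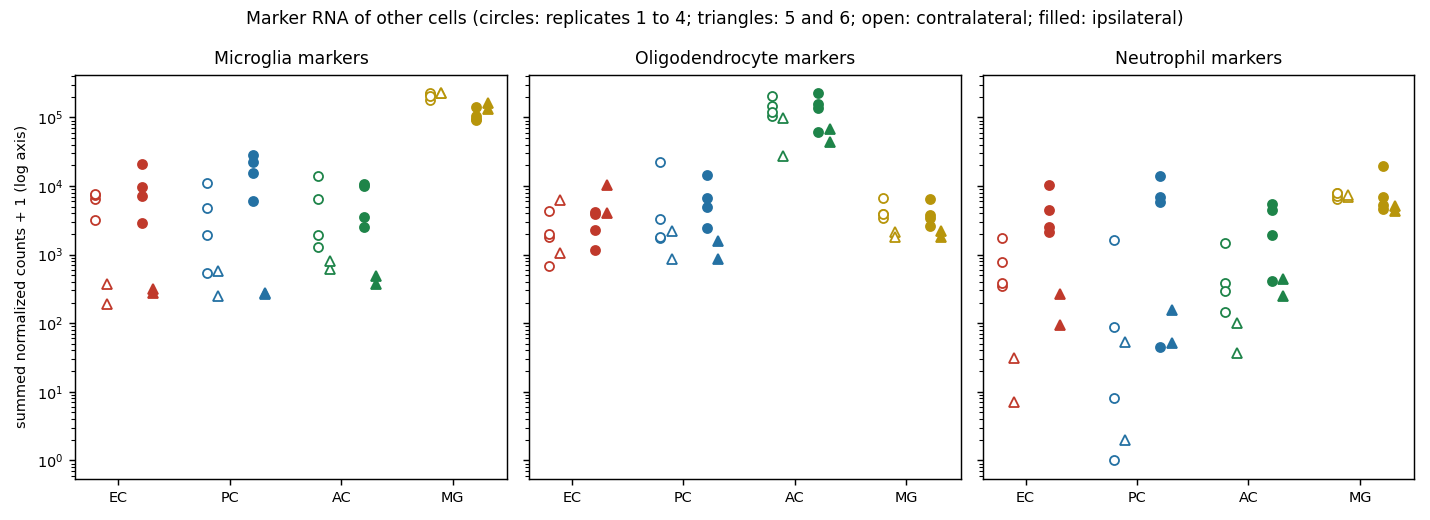
Summed normalized counts (plus 1, log axis) of microglial, oligodendrocyte and neutrophil marker genes in each library of the 4 sorted cell types (MG, microglia; AC, astrocytes; PC, pericytes; EC, endothelial cells), with contralateral libraries open and ipsilateral libraries filled. In EC, PC and AC, libraries 5 and 6 (triangles) held at most 801 counts of the microglial markers, and the AC libraries held the most oligodendrocyte RNA of the 4 cell types.

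After stroke, Trib3, Asns and Psat1 rose in MG, and Trib3 and Xbp1 rose in PC. The main test compared the hemispheres as unpaired groups of 6 libraries. In it, no gene of the 10 was called lower in any cell type, and none was called in EC or AC. With the library number as a block, Ddit3 and Asns were called in AC and Trib3 in PC was not (limma adjusted p of 0.0453, 0.0468 and 0.0703). A gene was called regulated at an adjusted p of at most 0.05 by limma over all genes tested, with a change of at least 1.5-fold and more than 10 normalized counts in all 6 libraries of at least 1 hemisphere. Of the 10 genes, 2 were regulated in PC, against a background of 0.441% of all genes tested called higher and 0.581% called lower. In MG, 3 were regulated, against 4.29% of all genes called higher and 6.27% called lower. In EC the background was 0.362% higher and 0.128% lower, and in AC it was 0.334% higher and 0.00655% lower. With limma's unadjusted p under 0.05, 6 of the 10 genes differed in EC against 11.9% of all genes, 4 in PC against 15.4%, 6 in AC against 9.28% and 5 in MG against 28%.

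The direction within pairs of libraries with the same number gives a view without a threshold. Such libraries were taken to come from the same pool of mice, which no label states. In EC, Atf4, Asns, Psat1, Hspa5 and Xbp1 were higher in the ipsilateral library of all 6 pairs, which is 5 of the 10 genes against 4.77% of all genes tested. In PC, Trib3, Asns, Hspa5 and Xbp1 were higher in all 6 pairs, against 4.55% of all genes. In AC, Ddit3, Trib3, Chac1 and Asns were, against 5.02%, and in MG, Trib3, Atf5, Chac1, Asns and Psat1 were, against 9.49%. Asns was higher in all 6 pairs of each cell type, which no other of the 10 genes was. The ranges of the hemispheres did not overlap for 2 of the 10 genes in EC, 2 in PC, 1 in AC and 3 in MG, with the ipsilateral one higher. Of all genes tested, this held for 1.13% in EC, 0.838% in PC, 0.655% in AC and 3.78% in MG. The median log2 fold change of the 10 genes was 0.61 in EC, 0.76 in PC, 0.59 in AC and 0.78 in MG, and the median over all genes tested was -0.03, -0.04, -0.06 and -0.18.

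**Figure D2:**
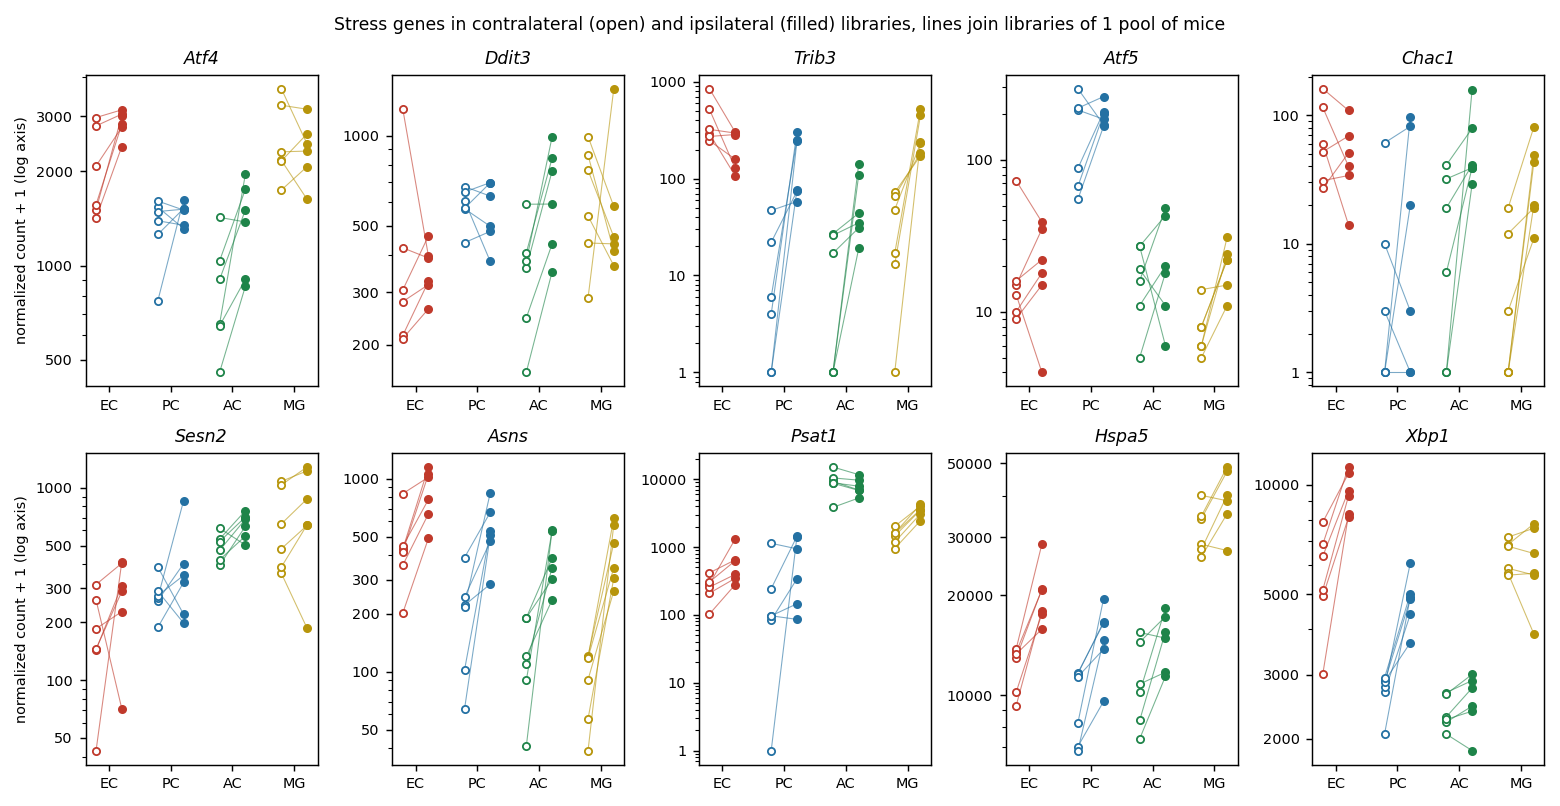
Normalized count plus 1 (log axis) of each of the 10 genes in every library, with contralateral libraries open and ipsilateral libraries filled, and lines joining libraries of the same number, taken as the same pool of mice, in MG (microglia), AC (astrocytes), PC (pericytes) and EC (endothelial cells). Trib3 ran from 0 to 71 normalized counts in contralateral MG and from 172 to 520 in ipsilateral MG, while in EC it was higher in the contralateral library of 5 of the 6 pairs.

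Atf4 (ENSMUSG00000042406, chr15:80255184-80257540 on GRCm38), the transcription factor that gives the program its name, was measured at high levels in all 4 cell types. In EC it ranged from 1418 to 2974 normalized counts in contralateral libraries (median 1824.5) and from 2401 to 3147 in ipsilateral libraries (median 2923). The ranges overlapped, the ipsilateral library was higher in all 6 pairs, and the log2 fold change was 0.54 ± 0.21 (SE, n = 6; limma adjusted p = 0.325). In AC, Atf4 ranged from 455 to 1425 (median 776) in contralateral and from 857 to 1957 (median 1441) in ipsilateral libraries, with a log2 fold change of 0.74 ± 0.29 (limma adjusted p = 0.453). In PC its mean was 1342 ± 305 (SD, n = 6) contralateral and 1470 ± 117 ipsilateral, and in MG 2553 ± 745 and 2378 ± 519. In PC and MG the direction was split, with 3 pairs higher and 3 lower.

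Ddit3 (ENSMUSG00000025408, chr10:127290774-127296288), the factor known for its part in death under prolonged ER stress, differed most in AC. There it ranged from 161 to 589 normalized counts (median 370) in contralateral and from 349 to 987 (median 674.5) in ipsilateral libraries. No pair was lower, and the log2 fold change was 0.90 ± 0.32 (limma adjusted p = 0.418). Counting the pool of mice as a block, limma gave an adjusted p of 0.0453 for Ddit3 in AC, which passes the threshold. The log2 fold change of Ddit3 was -0.14 in MG, -0.08 in PC and -0.00495 in EC, and in EC it turned positive with another scaling (0.0198). In EC 1 contralateral library stood at 1228 and the other 5 between 209 and 421, and in MG 1 ipsilateral library stood at 1434 and the other 5 between 367 and 579. In libraries 5 and 6 of MG alone, Ddit3 fell (log2 fold change -0.90, limma adjusted p = 0.0404), while in libraries 1 to 4 the value was 0.25 (limma adjusted p = 0.769). Of the exonic bases of Ddit3, 10.9% overlap other genes, and reads over several genes were left out by the authors.

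Atf5 (ENSMUSG00000038539, chr7:44812256-44816658), a factor of the same family tied to stress in mitochondria, was highest in PC. Contralateral PC held 155 ± 99.0 (SD, n = 6) normalized counts, and the other contralateral groups had means of 6.83 to 21.7, of which that of EC was 11.6 without library 2. In PC it ranged from 54 to 293 (median 149.5) contralateral and from 166 to 260 (median 192) ipsilateral, with a log2 fold change of 0.61 ± 0.43 (limma adjusted p = 0.525). In MG, Atf5 was low but higher in all 6 ipsilateral libraries of a pair, at 4 to 13 contralateral against 10 to 30 ipsilateral, with a log2 fold change of 1.42 ± 0.56 (limma adjusted p = 0.111).

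Trib3 (ENSMUSG00000032715, chr2:152337422-152344032), a pseudokinase induced by Atf4 and Ddit3 that restrains Akt and Atf4 signalling, had the largest fold changes of the 10 genes in MG, PC and AC. In MG it was at 0, 71, 12, 16, 47 and 65 normalized counts in contralateral libraries 1 to 6 and at 239, 172, 450, 520, 231 and 184 in the ipsilateral ones. The groups did not overlap, and the log2 fold change was 3.83 ± 0.85 (limma adjusted p = 0.0108), or 3.00 with a pseudocount of 10. It was 4.81 in libraries 1 to 4 and 1.88 in libraries 5 and 6, and both subsets passed. Without library 3 the adjusted p was 0.0648 and without library 4 it was 0.0566. The mean in MG went from 35.2 ± 29.8 to 299 ± 148 normalized counts (SD, n = 6).

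In PC, Trib3 was at 3, 0, 5, 0, 21 and 46 normalized counts in contralateral and at 300, 75, 252, 243, 73 and 57 in ipsilateral libraries. A total of 3 reads corresponds to 2 to 8 normalized counts, so the contralateral libraries 1 to 4 were at or near the floor. The groups did not overlap, and the log2 fold change was 4.64 ± 0.99 (limma adjusted p = 0.0421), or 3.02 with a pseudocount of 10. With the pool of mice as a block the adjusted p was 0.0703. The change was 6.45 in libraries 1 to 4, where the microglial markers were also higher in each ipsilateral library, and 1.03 in libraries 5 and 6 (adjusted p = 0.462). Leaving out any 1 of the 6 pairs ended this call, with adjusted p of 0.0707 to 0.185.

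In AC, Trib3 ranged from 0 to 26 normalized counts in contralateral and from 18 to 140 in ipsilateral libraries, was higher in all 6 pairs, and did not pass (log2 fold change 3.36 ± 1.02, limma adjusted p = 0.293). The change in AC was 4.72 in libraries 1 to 4 and 0.65 in libraries 5 and 6. In EC Trib3 stood at a higher level, and it was lower in the ipsilateral library of 5 of 6 pairs. Contralateral EC held 246 to 849 normalized counts (median 306.5), ipsilateral EC 106 to 302 (median 221.5), and the log2 fold change was -0.94 ± 0.39 (limma adjusted p = 0.345). In libraries 1 to 4 of EC the mean difference was -1.40 on the log2 scale, and in libraries 5 and 6 it was -0.03.

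Chac1 (ENSMUSG00000027313, chr2:119351229-119354381), an enzyme that breaks down glutathione, was low everywhere. In MG it was at 0 in 3 contralateral libraries and at most 18 in the others, and ipsilateral MG held 10 to 80 normalized counts (median 30.5). Its log2 fold change of 3.33 ± 0.91 had a limma adjusted p of 0.0297, but 1 ipsilateral library did not exceed 10 normalized counts, so it was not called regulated. In AC it was higher in all 6 pairs (0 to 40 contralateral, 28 to 157 ipsilateral, log2 fold change 2.87 ± 0.97, limma adjusted p = 0.377). In EC it ranged from 26 to 160 contralateral and from 13 to 108 ipsilateral, with 3 pairs higher and 3 lower. In PC 4 of the 12 libraries held more than 10 normalized counts, and the mean paired difference on the log2 scale was 2.84 in libraries 1 to 4 and -1.66 in libraries 5 and 6.

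Sesn2 (ENSMUSG00000028893, chr4:132492032-132510501), a sestrin that restrains mTORC1 when leucine is short, had log2 fold changes of 0.18 to 0.69 in the 4 cell types. None passed the test, with limma adjusted p of 0.515 to 0.810. The value of 0.69 was that of EC, and it became 1.21 without library 1 and 0.18 without library 2. In AC, the cell type with the narrowest spread, it ranged from 395 to 615 normalized counts (median 498) contralateral and from 503 to 758 (median 656.5) ipsilateral, and was higher in 5 of 6 pairs. In EC the ipsilateral library was higher in 5 of 6 pairs as well, with 42 to 313 contralateral and 70 to 411 ipsilateral normalized counts.

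Asns (ENSMUSG00000029752, chr6:7675169-7693254), which makes asparagine from aspartate, was the most regular of the 10 genes across cell types. In MG it ranged from 38 to 120 normalized counts (median 103.5) in contralateral and from 261 to 622 (median 404) in ipsilateral libraries. The groups did not overlap, and the log2 fold change was 2.29 ± 0.35 (limma adjusted p = 0.00126), a call that held in all 17 alternative settings. In AC it ranged from 40 to 189 (median 113.5) and from 234 to 538 (median 365), again without overlap. The log2 fold change in AC was 1.77 ± 0.36, with a limma adjusted p of 0.0652, which became 0.0468 with the pool of mice as a block.

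In PC, Asns ranged from 63 to 389 normalized counts contralateral (median 218) and from 283 to 843 ipsilateral (median 519.5), with a log2 fold change of 1.57 ± 0.41 (limma adjusted p = 0.0897). In EC it ranged from 200 to 835 (median 424) and from 491 to 1148 (median 898.5), with a log2 fold change of 1.00 ± 0.32 (limma adjusted p = 0.196). The 2 hemispheres overlapped in PC and EC, and Asns was higher in each ipsilateral library than in its pair.

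Psat1 (ENSMUSG00000024640, chr19:15904678-15925059), an enzyme of serine synthesis, rose in MG. There it ranged from 951 to 2022 normalized counts (median 1527.5) contralateral and from 2454 to 4263 (median 3549) ipsilateral, without overlap. The log2 fold change was 1.26 ± 0.20 (limma adjusted p = 0.00147), and the 6 paired differences had an SD of 0.16, the smallest but 1 among the 40 pairs of gene and cell type. When all 48 libraries shared 1 estimate of spread, the adjusted p was 0.386. In AC, whose level of Psat1 was the highest, it ranged from 3852 to 15146 contralateral and from 5288 to 11703 ipsilateral, and was lower in 5 of 6 pairs (log2 fold change -0.16 ± 0.29, limma adjusted p = 0.912). In EC it was higher in all 6 pairs (102 to 416 against 278 to 1313, log2 fold change 1.11 ± 0.41, limma adjusted p = 0.276). In PC it ranged from 0 to 1136 contralateral and from 85 to 1439 ipsilateral, too wide a spread to read a direction (95% interval of the log2 fold change -0.33 to 5.40).

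Hspa5 (ENSMUSG00000026864, chr2:34771970-34777547), the chief chaperone of the ER, was the most abundant of the 10 genes per kb of exon in every cell type. In EC it ranged from 9287 to 13778 normalized counts (median 13122) contralateral and from 15818 to 28545 (median 19384.5) ipsilateral, without overlap. The log2 fold change in EC was 0.73 ± 0.21, with a 95% interval of 0.28 to 1.17, and did not pass over all genes (limma adjusted p = 0.155). In PC it was higher in all 6 pairs (6807 to 11671 against 9584 to 19572, log2 fold change 0.68 ± 0.21, limma adjusted p = 0.126). In AC the log2 fold change was 0.45 ± 0.22, with 5 of 6 pairs higher. In MG it was 0.30 ± 0.19, with 4 of 6 pairs higher and levels of 26166 to 48774 over both hemispheres.

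Xbp1 (ENSMUSG00000020484, chr11:5520659-5525893), the factor whose spliced message raises chaperones and ER degradation genes, rose in PC. It ranged from 2060 to 2945 normalized counts (median 2818.5) in contralateral PC and from 3672 to 6090 (median 4881.5) in ipsilateral PC. The groups did not overlap, and the log2 fold change was 0.83 ± 0.14 (limma adjusted p = 0.0176). It was 0.86 in libraries 1 to 4 and 0.76 in libraries 5 and 6, of which neither subset passed alone, and the call ended without library 3, 4, 5 or 6. In EC, Xbp1 ranged from 3013 to 7892 (median 5749) contralateral and from 8138 to 11190 (median 9478.5) ipsilateral, also without overlap, with a log2 fold change of 0.80 ± 0.23 (limma adjusted p = 0.156). In AC and MG its log2 fold changes were 0.10 ± 0.15 and -0.07 ± 0.18, with 95% intervals of -0.22 to 0.42 and -0.44 to 0.31.

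**Figure D3:**
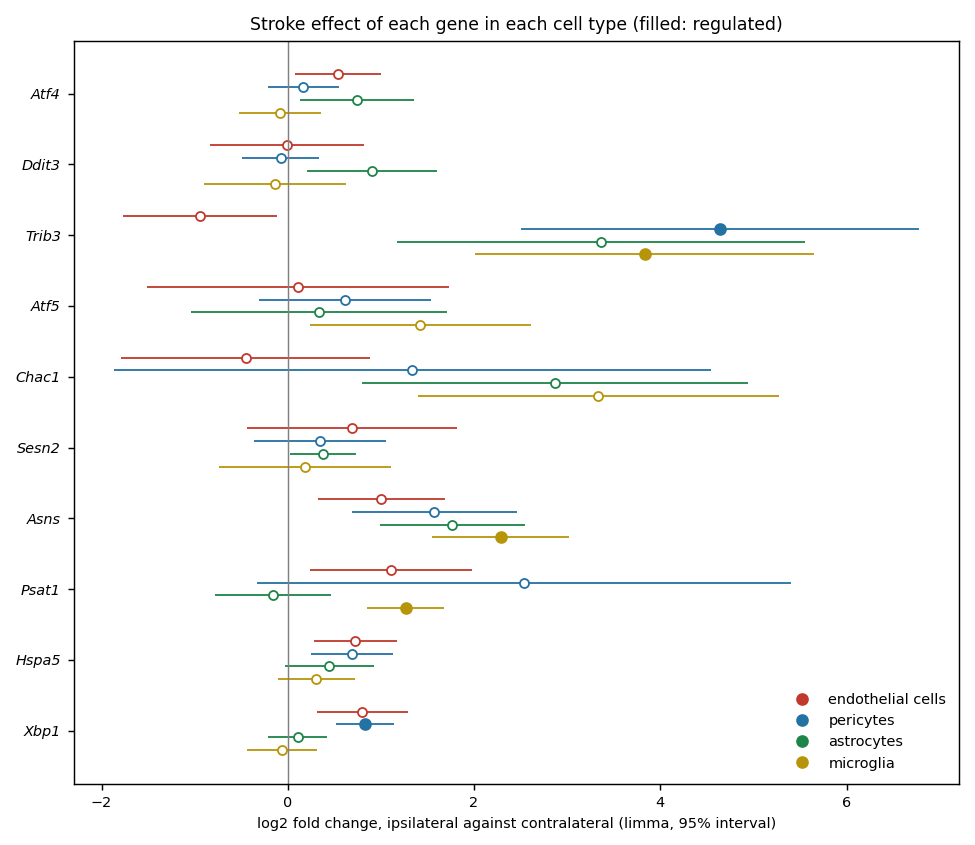
Log2 fold change of each of the 10 genes (ipsilateral against contralateral, limma) with its 95% interval in the 4 cell types, where filled points are regulated genes. The 5 filled points are Trib3 in pericytes (4.64) and microglia (3.83), Asns (2.29) and Psat1 (1.26) in microglia, and Xbp1 in pericytes (0.83).

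Whether a gene's stroke effect differed between 2 cell types was tested directly, for 6 pairs of cell types and 10 genes. None of the 60 differences passed in limma over all genes. The background was 0.0267% of all genes for EC against PC, 0.06% for EC against AC, 0.273% for EC against MG, 0.00667% for PC against AC, 0.727% for PC against MG and 0.293% for AC against MG. With limma's unadjusted p under 0.05, 1 of the 10 genes differed for EC against PC (7.95% of all genes), 3 for EC against AC (5.45%), 4 for EC against MG (11%), 3 for PC against AC (6.2%), 1 for PC against MG (12.7%) and 2 for AC against MG (8.4%).

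The lowest adjusted p belonged to differences of Trib3 and Xbp1. The stroke effect of Trib3 in EC was below that in PC by a log2 difference of -5.59 ± 1.28 (limma adjusted p = 0.114) and below that in MG by -4.77 ± 1.28 (limma adjusted p = 0.0971). With a pseudocount of 10, both differences passed. The stroke effect of Xbp1 in PC exceeded that in MG by 0.90 ± 0.24 (limma adjusted p = 0.0564), and that in EC exceeded it by 0.86 ± 0.24 (limma adjusted p = 0.111). With the pool of mice as a block, these 2 differences of Xbp1 passed, at adjusted p of 0.0202 and 0.0412. For Asns the differences between cell types ran from 0.20 to 1.28 in size, and the 95% interval for EC against MG was -2.36 to -0.21.

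Away from the lesion, the 10 genes differed in level between cell types, at a limma adjusted p of at most 0.05 over all genes. Of the 10 genes, 6 differed between contralateral EC and PC, against 35.4% of all genes, and 7 between EC and AC, against 50.1%. Between EC and MG 6 differed, against 42.6%, and between PC and AC 4, against 46.3%. Between PC and MG 7 differed, against 48.9%, and between AC and MG 5, against 51.7%.

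Trib3 was highest in contralateral EC, at 417 ± 233 (SD, n = 6) normalized counts, against 35.2 ± 29.8 in MG, 12.5 ± 18.2 in PC and 11.2 ± 12.7 in AC. EC differed from each of the others, by log2 differences of 4.29 to 6.30 (limma adjusted p of 1.14e-07 to 0.000118). No difference among MG, PC and AC passed. The 95% intervals of AC against MG (-3.83 to -0.18) and of PC against MG (-3.66 to -0.0054) left out 0 (limma adjusted p of 0.0603 and 0.0913). Chac1 followed the same order at its top, with 73.3 ± 52.9 in EC and 5.17 to 15.7 in the other cell types, which did not differ among themselves beyond their spread. The mean of Chac1 in PC was 11.8, or 2.20 without library 3. Asns was also highest in EC, at 447 ± 210, followed by PC at 205 ± 115, AC at 122 ± 58.3 and MG at 89.8 ± 35.4. EC exceeded each of the others in Asns, whereas PC and AC, and AC and MG, did not differ beyond their spread.

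Psat1 was highest in AC, at 9387 ± 3624 normalized counts, then in MG at 1470 ± 371, and in PC and EC at 276 ± 429 and 262 ± 104. AC exceeded MG by 2.61 on the log2 scale (limma adjusted p = 0.00467). The difference between EC and PC did not pass (95% interval 0.05 to 3.23, limma adjusted p = 0.103). Without the PC library at 1136, the mean in PC was 104 ± 87.6 (n = 5). The AC libraries held oligodendrocyte RNA as given above, and its part in the level of Psat1 was not tested. Atf5 was highest in PC, by 2.95 to 4.12 on the log2 scale over the other cell types (limma adjusted p of 3.21e-08 to 3.14e-05). No difference among EC, AC and MG passed, and the lowest limma adjusted p was 0.0919, for EC against MG (95% interval 0.04 to 2.29).

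Hspa5 was highest in MG, at 31853 ± 5338 normalized counts, against 9450 to 12164 in the other cell types. No difference among those passed, and the lowest limma adjusted p was 0.114, for EC against PC (95% interval 0.0019 to 0.77). Xbp1 was high in MG (6338 ± 670) and EC (5699 ± 1716), which did not differ, and lower in PC (2700 ± 327) and AC (2360 ± 250), which also did not differ. Atf4 ran from 2553 ± 745 in MG through 2058 ± 684 in EC and 1342 ± 305 in PC to 851 ± 348 in AC, and among neighbours MG and EC did not differ. Ddit3 stood at 646 ± 270 in MG, 584 ± 83.0 in PC, 442 ± 393 in EC and 357 ± 147 in AC, and no difference between neighbours in this order passed. Without the library at 1228, the mean in EC was 285 ± 86.2 (n = 5), below that of AC. Sesn2 ran from 664 ± 321 in MG through 495 ± 81.6 in AC and 277 ± 64.2 in PC to 181 ± 95.7 in EC, and again no difference between neighbours passed. Per kb of exon, the contralateral level of Hspa5 was 7532 normalized counts in MG and 2235 to 2876 in the others. The lowest of the 10 genes per kb was Chac1 in MG at 3.16, Trib3 in PC at 5.88 and AC at 5.25, and Atf5 in EC at 10.9.

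The 10 genes also varied together to different degrees. Over the 48 libraries, with values centred within each cell type, 37 of the 45 pairs of genes had a positive Pearson r, with a median of 0.22. The highest were Xbp1 with Hspa5 (0.67), Ddit3 with Atf4 (0.655), Chac1 with Trib3 (0.63) and Asns with Trib3 (0.55), and the lowest was Xbp1 with Ddit3 (-0.30). These points share pools of mice and the difference between hemispheres, so r describes these libraries only. The share of positive pairs over all genes was not determined, so the 37 of 45 pairs stand without a background. Among genes outside the set, AI506816 (r = 0.81), Plin2 (0.80), Cd44 (0.80), Hmga1 (0.80) and Srm (0.80) were most like the mean of the 10 genes over the 48 libraries.

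The other genes of these pathways were followed with 7 lists of 99 genes. In EC 1 of the 96 genes tested rose and 0 fell, in PC 1 of 97 rose and 0 fell, in AC 1 of 97 rose and 0 fell, and in MG 9 of 94 rose and 5 fell. Of all genes tested in MG, 4.29% rose and 6.27% fell, and the shares in the other cell types are given above. With the pool of mice as a block the counts of the lists were 1 and 0 in EC, 2 and 2 in PC, 7 and 1 in AC, and 15 and 7 in MG. With this block, calls in either direction over all genes were 73 of 13242 in EC, 226 of 13597 in PC, 242 of 15264 in AC and 1468 of 13300 in MG. The median log2 fold change of the lists together was 0.35 in EC, 0.25 in PC, 0.21 in AC and 0.19 in MG, beside the medians of all genes given above.

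**Figure D4:**
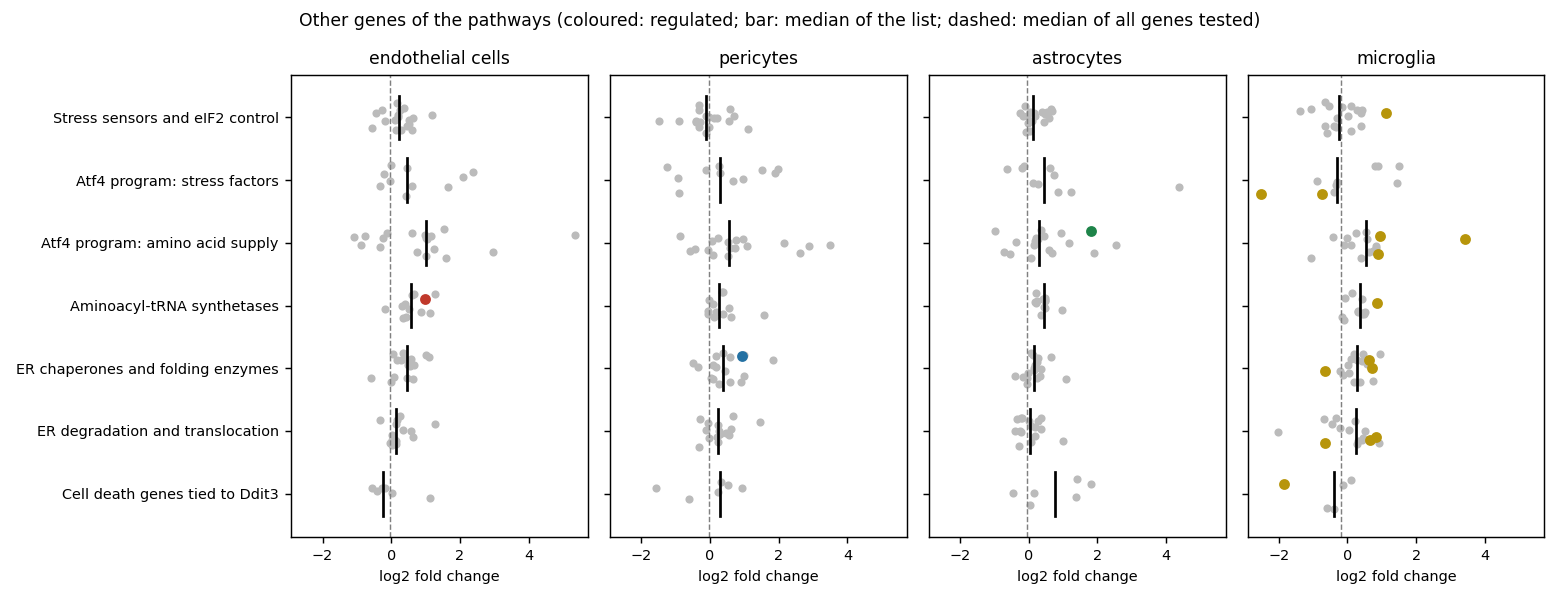
Log2 fold change (ipsilateral against contralateral) of each tested gene of 7 pathway lists in the 4 cell types, with regulated genes coloured, a bar at the median of the list and a dashed line at the median of all genes tested. The coloured point farthest to the right in microglia is Slc7a11 (3.42), and the one farthest to the left is Ddit4 (-2.52).

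Of the 18 sensors and controls of eIF2, none passed in EC, PC or AC, and in MG Eif2s1, which encodes eIF2α itself, rose from 1342 ± 221 to 2969 ± 940 normalized counts (log2 fold change 1.12 ± 0.19, limma adjusted p = 0.00255). With the block, Ppp1r15a also fell in PC and MG and Ppp1r15b rose in AC (limma adjusted p of 0.0284, 0.0306 and 0.0430), both of which guide a phosphatase to eIF2α. Of the stress factors of the Atf4 program, 10 or 11 of 12 were tested and none rose in any cell type, while 2 fell in MG. With the pool of mice as a block, Gdf15 rose in AC and MG (log2 fold changes 4.38 and 1.51, limma adjusted p of 0.031 and 0.00969), Eif4ebp1 rose in MG, and Atf3 fell in PC and MG (limma adjusted p of 0.0273, 0.0344 and 0.0453). Ddit4, an inhibitor of mTORC1, fell there from 183 to 535 in contralateral to 14 to 142 in ipsilateral libraries (log2 fold change -2.52 ± 0.54, limma adjusted p = 0.00828). Cebpg, a partner of Atf4, fell in 5 of 6 pairs, from 1485 ± 206 to 913 ± 251 (limma adjusted p = 0.0193).

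Genes of amino acid supply held the largest changes in the same direction as Asns and Psat1. In MG 3 of the 16 tested rose. Slc7a11, the cystine transporter, ranged from 65 to 398 normalized counts contralateral and from 755 to 2490 ipsilateral (log2 fold change 3.42 ± 0.39, limma adjusted p = 0.000145). Mthfd2, an enzyme of mitochondrial folate metabolism, went from 644 ± 130 to 1239 ± 160, and Got1, an aspartate aminotransferase, from 700 ± 87.9 to 1310 ± 309, with limma adjusted p of 0.0030 and 0.00716. In AC 1 of 18 rose, Slc7a1, a transporter of arginine and lysine, from 139 ± 34.6 to 485 ± 82.4 normalized counts (log2 fold change 1.82 ± 0.21, limma adjusted p = 0.00174). None of the 18 passed in EC or PC, where the medians of the list were 1.00 and 0.55. With the block, Slc7a11 rose in EC, Mthfd2 and Slc1a5 in AC and Slc1a5 in MG, and Slc6a9 fell in AC (limma adjusted p of 0.0371, 0.0183, 0.0471, 0.0475 and 0.0463).

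Of the 12 aminoacyl-tRNA synthetases, which charge tRNAs with amino acids, Yars rose in EC, from 577 ± 92.7 to 1155 ± 212 normalized counts (limma adjusted p = 0.0381, or 0.0789 with the pool of mice as a block). Eprs rose in MG, from 1736 ± 277 to 3118 ± 427 (limma adjusted p = 0.0037), and no synthetase passed in PC or AC, although with the block Iars rose in AC (limma adjusted p = 0.0413).

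Among the 17 ER chaperones and folding enzymes, Calr, the calcium-binding chaperone calreticulin, rose in PC beside Xbp1, from 3146 ± 767 to 5967 ± 1287 normalized counts (log2 fold change 0.93 ± 0.18, limma adjusted p = 0.0288). In MG, Creld2 and Sdf2l1 rose by log2 fold changes of 0.70 and 0.62, while Sil1, a nucleotide exchange factor for BiP, fell by 0.67 on the log2 scale (limma adjusted p of 0.0155, 0.0281 and 0.0187). None passed in EC or in AC. The log2 fold change was positive for 16 of the 17 in EC, 15 in PC, 12 in AC and 14 in MG. The medians were 0.45, 0.38, 0.16 and 0.29. Of all genes tested, 47.9% were positive in EC, 47.5% in PC, 44.4% in AC and 40.5% in MG. Of the genes of ER degradation and translocation, Ssr1 and Ssr2, subunits of the translocon-associated complex, rose in MG by 0.64 and 0.84, and Edem2, which acts in the removal of misfolded glycoproteins, fell by 0.65 on the log2 scale (limma adjusted p of 0.0181, 0.026 and 0.0183). None of these passed in the other 3 cell types. With the block, Ero1l rose in AC and MG, Sdf2l1 in PC and Manf and Sec61b in MG, and Herpud1 fell in MG (limma adjusted p of 0.0114, 0.0455, 0.0339, 0.0478, 0.0318 and 0.0396).

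Of the 6 cell death genes tied to Ddit3, 1 passed, and it was lower: Bbc3, which encodes Puma, fell in MG from 107 to 358 normalized counts contralateral to 10 to 168 ipsilateral (log2 fold change -1.84 ± 0.57, limma adjusted p = 0.0491, or 0.0527 with the pool of mice as a block). In the same MG libraries, the microglial markers Csf1r and Tmem119 and 4 of 7 immediate early genes fell as well, and of the neutrophil markers Retnlg, S100a8 and S100a9 rose while Csf3r fell. Of the 8 neutrophil markers tested in MG, 7 had a positive log2 fold change, against 40.5% of all genes, and their median was 2.43. The summed neutrophil markers had a median of 7234 contralateral (6423 to 8037) and 5148.5 ipsilateral (4388 to 19551), so the sum and most single markers differed in direction. The summed microglial markers ranged from 180699 to 227678 contralateral and from 91419 to 163197 ipsilateral. Their part in the changes of the stress genes in MG was not tested.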

How the data were processed

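RNA of sorted cells (about 250 pg per library) was amplified with a SMART-Seq kit. The authors trimmed reads with Trimmomatic 0.38, aligned them to mm10/GRCm38 with STAR 2.6.1d, counted reads per gene with featureCounts 1.6.3 and normalized with DESeq2 1.18.1. The deposited table holds these normalized counts, which the authors rounded to integers, and its values were treated as a score, not as raw counts. They summed to 10549900 to 16942165 per library, and the steps between low values put 1 read at 0.66 to 2.37 normalized counts, or about 4900000 to 17100000 reads on genes. Whether strand was used is not given in the sources used here.

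Genes with a mean of at least 10 in the libraries fitted were tested with limma 3.58.1 in R 4.3.3 (trend, two-sided) on log2(normalized count + 1), over the 12 libraries of each cell type, with Benjamini-Hochberg adjustment over all genes tested. The main fits held no term for the pair, and the block of the alternative fits was the library number. Fold changes of low genes on this scale depend on the pseudocount, and with libraries at 0 they can lie above or below the ratio of the group means. Differences between cell types came from 1 fit of all 48 libraries. The script was tested on simulated data. The 10 genes and the lists were chosen with earlier results of these data known. All 10 genes, up to 5 regulated genes per list and cell type, and the 5 genes most like the 10 in pattern are named, and other genes were chosen after their values were seen.

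Libraries with the same number were taken to come from the same pool of mice, which pairs them, and no label states this. The deviations of same-numbered libraries correlated at a mean of 0.227 in EC, 0.227 in PC, 0.38 in AC and 0.135 in MG, against -0.0387, -0.0449, -0.0759 and -0.0258 for other numbers. The lowest same-numbered values were 0.0105, -0.0731, 0.0188 and -0.0281. Of the 12 libraries of each cell type, 6 in EC, 7 in PC, 9 in AC and 5 in MG correlated best with their own number. Gene names came from the deposited table, and sequences from RefSeq on GRCm38.p6. One gene of the oligodendrocyte marker list is not reported here and was left out of its sums.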

Additional observations from a re-analysis of the deposited data

Results flagged for a closer look

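In 9 of the 80 groups of 6 libraries (10 genes, 4 cell types, 2 hemispheres), 1 library lay far from the other 5 by Dixon's test on normalized counts. For normally distributed values chance flags about 1 in 20 groups. Whether these counts are so distributed was not tested, so the 9 flags cannot be weighed against that rate. Of these, 4 were replicate 2. Ddit3 stood at 1228 normalized counts in replicate 2 of contralateral EC and at 1434 in replicate 2 of ipsilateral MG. Both libraries also had larger sums of normalized counts over all genes than any other library (15633875 and 16942165). The part of this in their flagged values was not tested. Atf5 stood at 72 in replicate 2 of contralateral EC and at 13 in replicate 5 of contralateral MG. Chac1 stood at 60 in replicate 3 of contralateral PC, and Sesn2 at 855 in replicate 4 of ipsilateral PC. Psat1 stood at 1313 in replicate 3 of ipsilateral EC and at 1136 in replicate 2 of contralateral PC. Xbp1 stood at 2060 in replicate 4 of contralateral PC, the only one of the 9 below its group. No difference in stroke effect between cell types was flagged, since none of the 60 passed its test.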

How the results depend on the processing

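In MG the count of regulated genes among the 10 stayed between 2 and 4 in all 17 alternatives, and Asns was called in each. Ddit3 was called lower in MG in replicates 5 and 6 (-0.90). In PC the 2 calls became 1 with a pseudocount of 0.1, without any filter, with the filter set at a mean of 50, with the replicate block and in replicates 1 to 4, became 0 in replicates 5 and 6, became 4 in the joint fit of 48 libraries, and ran from 0 to 1 when 1 replicate was left out. In AC the count of 0 became 2 with the replicate block (Ddit3 and Asns) and 1 in the joint fit (Asns). In EC the count of 0 became 2 in the joint fit (Hspa5 and Xbp1) and 3 in replicates 5 and 6 (Atf4, Asns and Hspa5). Over all genes, calls in these settings went from 52 to 242 and 89 in AC, and from 65 to 235 and 452 in EC. In PC all calls went from 139 to 288 in the joint fit, and to 11 to 112 when 1 replicate was left out. In MG they ran from 557 to 1909 over the alternatives. The differences in stroke effect numbered 3 with a pseudocount of 10 and 2 with the replicate block. The block changed no other call of the 10 genes. Values that turned direction were called neither in all replicates nor in the setting that turned them. Chac1 in PC was under the filter in replicates 5 and 6, where its mean paired difference was -1.66. With median-of-ratios rescaling the log2 fold change of Ddit3 in EC was 0.0198. In replicates 1 to 4 Atf5 was at -0.23 in EC and -0.18 in AC, and Ddit3 at 0.25 in MG. In replicates 5 and 6 Ddit3 was at 0.47 in EC and 0.19 in PC, Chac1 at 0.53 in EC, Atf4 at -0.0357 in PC and 0.12 in MG, Sesn2 at -0.10 in PC, Psat1 at 0.0531 in AC and Xbp1 at 0.0617 in MG. When 1 replicate was left out, Atf4 ran from -0.157 to 0.0179 in MG and from -0.0142 to 0.25 in PC, Atf5 from -0.11 to 0.47 in EC, Ddit3 from -0.13 to 0.32 in EC, -0.63 to 0.0494 in MG and -0.15 to 0.0426 in PC, and Xbp1 from -0.12 to 0.0319 in MG. The cause of these changes was not tested. Values of Trib3 and Chac1 near the floor of 3 reads limit their fold changes.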
